A study of Mus musculus with 6 samples.

Results

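The amyloid precursor family and the enzymes that cleave it were read here by 27 probe sets of 9 genes, out of 45037 probe sets tested. Of those tested, 34945 had exactly 1 gene symbol and covered 18193 named genes. The members were App, Aplp1 and Aplp2, which encode the precursor protein and its homologues, and Bace1, Adam10, Adam17, Psen2, Ncstn and Psenen, which encode cleaving enzymes or their subunits. A probe set was taken where the platform annotation gave it exactly 1 gene symbol and that symbol was a member. The family was selected on a measured value of these arrays, the difference between the groups in the Aplp2 probe set 1432344_a_at, seen in an earlier look at the data. Its difference, and the other differences between the same groups, are therefore given as a description.

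The arrays came from the ventricular apex of hearts of mice of a transgenic model of PR-M, a progesterone receptor of human origin that is located in mitochondria. The 3 arrays of the PR-M expressing group were set against the 3 arrays of the PR-M non-expressing group. How PR-M expression was established is not stated in the labels. Every mouse of both groups had received 2.5 mg of progesterone in oil under the skin for 19 to 21 days, so hormone treatment was shared by the controls. The labels give neither the promoter that drives PR-M nor the strain, age or sex, nor whether each array is a separate animal, so the errors below measure the spread between these samples, which may be technical. Values are deposited log2 expression values, so 1 unit is a doubling, and each difference is the expressing minus the non-expressing mean. All probe sets were fitted together with limma, SE is its moderated standard error, and p-values were adjusted by Benjamini and Hochberg with a threshold of 0.05.

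Amyloid precursor proteins are membrane proteins with a large outer part and a short tail inside the cell. They are first cut outside the membrane, either by an alpha-secretase of the ADAM family or by the beta-secretase BACE1. The remaining stub is then cut inside the membrane by gamma-secretase, a complex of presenilin, nicastrin, APH1 and PEN-2. App and Aplp2 are transcribed in most tissues, the heart included, whereas Aplp1 is mainly neuronal, and App and Aplp2 transcripts are spliced into several forms, some with a Kunitz-type protease inhibitor domain.

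The promoters of App and Aplp2 are shown because App encodes the precursor itself and Aplp2 is the gene whose probe set chose the family. Each sequence is the 250 bases before the transcription start in the RefSeq promoter table (GRCm38.p6), 5′ to 3′ on the gene's minus strand, with the GC box GGGCGG in capitals. The App window is chr16:85173708-85173957 and the Aplp2 window is chr9:31211849-31212098.
App: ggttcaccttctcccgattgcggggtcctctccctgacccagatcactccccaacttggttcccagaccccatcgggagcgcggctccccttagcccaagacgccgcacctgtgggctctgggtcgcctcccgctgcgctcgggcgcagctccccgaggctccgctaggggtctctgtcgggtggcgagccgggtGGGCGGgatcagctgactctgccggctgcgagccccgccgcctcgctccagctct
Aplp2: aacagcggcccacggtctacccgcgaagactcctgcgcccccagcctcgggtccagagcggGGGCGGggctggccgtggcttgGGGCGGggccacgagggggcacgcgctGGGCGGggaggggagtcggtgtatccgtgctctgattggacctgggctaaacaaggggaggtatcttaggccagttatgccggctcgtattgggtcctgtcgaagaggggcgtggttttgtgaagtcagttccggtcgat

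The GC box, a binding sequence of Sp1-type factors, was searched on both strands and occurred 3 times before Aplp2 and 1 time before App. It was present in 32.7% of all 32851 windows of this length. The box CCAAT occurred 2 times before Aplp2 and 0 times before App, against 33.8% of windows with a match. Adam10 had the same counts as Aplp2, 3 GC boxes and 2 CCAAT matches. The letters TATAAA (12.4% of windows) were found on neither strand of the App and Aplp2 windows. Nor was TGTTCT, the hexamer of steroid receptor elements (16.1% of windows), which occurred 2 times in a Psen2 window. G and C made up 66.4% of the Aplp2 window and 70.8% of the App window, and the median over all windows was 52.4%. None of these motifs contains another, and the matches describe letters only.

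Among the members, Aplp2 stood out for probe sets that went opposite ways. Probe set 1432344_a_at fell, 2.88-fold lower in the expressing arrays, while the other 4 probe sets of the gene were 1.16-fold to 1.39-fold higher there. It was the only 1 of the 27 member probe sets that passed the threshold, where 0.0133% of all probe sets passed (6 of 45037) and 0.0111% passed as lower. The family was chosen on the difference of 1432344_a_at, so its pass is a description and no test of the family. Of the other 26, none passed in limma (lowest adjusted p 0.116) and 6 had an unadjusted p under 0.05, where 12.2% of all probe sets did. Among these 6, 4 were the remaining probe sets of Aplp2, 1 was of App and 1 of Adam10. The groups did not overlap in 9 of the 27, 6 higher and 3 lower in the expressing arrays, a share of 33.3%. Over all probe sets 18.6% did not overlap, 8.27% higher and 10.3% lower. Those 9 include all 5 probe sets of Aplp2, which share a target. The median difference over the 27 was -0.02, as it was over all probe sets.

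**Figure D1:**
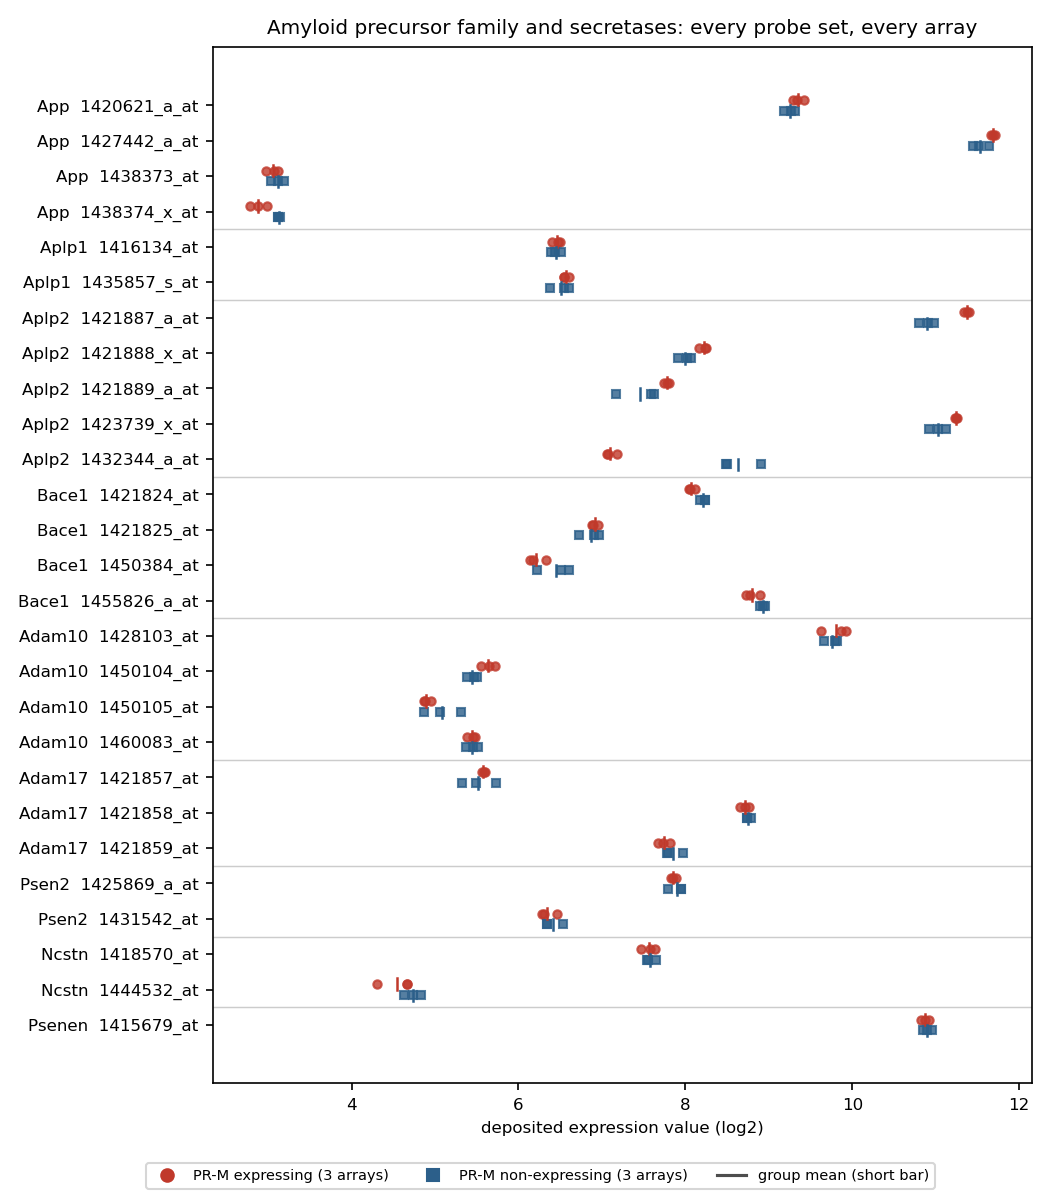
Deposited log2 expression value (horizontal axis) of each of the 27 member probe sets (rows) on each array. Circles are the 3 expressing arrays, squares the 3 non-expressing arrays and short bars the group means. The widest gap between the groups is in Aplp2 1432344_a_at, where the expressing arrays lie at 7.06 to 7.18 and the non-expressing arrays at 8.49 to 8.90.

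Aplp2 encodes a ubiquitous homologue of the amyloid precursor protein. Its probe set 1432344_a_at read 7.06, 7.07 and 7.18 in expressing replicates 1 to 3 and 8.90, 8.50 and 8.49 in non-expressing replicates 1 to 3. The 3 expressing arrays lay close together and all below the non-expressing arrays, with a gap of 1.31 between the nearest values, and non-expressing replicate 1 was the highest. The group means were 7.10 ± 0.06 against 8.63 ± 0.24 (SD, n = 3 each), a difference of -1.53 (SE 0.12). Leaving out expressing replicate 3 ended the call (limma adjusted p 0.0840), and so did leaving out non-expressing replicate 2 (0.0509) or 3 (0.0566). As the family was chosen on this probe set's difference, these adjusted p-values are given as a description. The difference itself lay between -1.60 and -1.39 with any 1 array left out.

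The brightest Aplp2 probe set, 1421887_a_at, read 11.34, 11.40 and 11.38 in expressing replicates 1 to 3 and 10.90, 10.98 and 10.80 in non-expressing replicates 1 to 3. All expressing arrays were higher, with a gap of 0.36, and the difference was 0.48 (SE 0.08), or 1.39-fold. It did not pass (limma adjusted p 0.116). Probe set 1423739_x_at read 11.25, 11.25 and 11.23 in expressing replicates 1 to 3 and 11.12, 11.03 and 10.91 in non-expressing replicates 1 to 3, again without overlap, and differed by 0.22 (SE 0.08).

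The other 2 Aplp2 probe sets were of middle brightness and had the same direction. Probe set 1421888_x_at read 8.16, 8.25 and 8.24 in expressing replicates 1 to 3 and 8.02, 8.07 and 7.92 in non-expressing replicates 1 to 3, with a difference of 0.22 (SE 0.08). Probe set 1421889_a_at read 7.74, 7.80 and 7.78 in expressing replicates 1 to 3 and 7.62, 7.59 and 7.17 in non-expressing replicates 1 to 3, with a difference of 0.32 (SE 0.12). In the latter, non-expressing replicate 3 was the lowest array by a wide margin, and without it the difference was 0.17. The 4 Aplp2 probe sets that were higher had differences of 0.22 to 0.48, a median of 0.27 and unadjusted p-values under 0.05, and none passed after adjustment over all probe sets.

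The contrast within Aplp2 was also taken array by array, as 1432344_a_at minus the mean of the other 4 probe sets. Probe sets differ in brightness by design, so only the shift of this quantity between arrays can be read, not its sign. It was -2.56, -2.61 and -2.48 in expressing replicates 1 to 3 and -0.51, -0.92 and -0.71 in non-expressing replicates 1 to 3. The group means were -2.55 ± 0.06 and -0.71 ± 0.20 (SD, n = 3 each), a shift of -1.84. Most of this shift is the difference of 1432344_a_at that chose the family, so the separation of the groups is a description. With any 1 array left out the shift lay between -1.94 and -1.73, and against each of the 4 probe sets alone it lay between -2.01 and -1.75.

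The annotation ties the Aplp2 probe sets to 3 source sequences. Probe sets 1421887_a_at, 1421888_x_at and 1421889_a_at share the first, 1423739_x_at has another, and 1432344_a_at has the last to itself. The ending _a_at marks probe sets that can read several transcripts of the same gene, and _x_at those whose probes may also bind other sequences. RefSeq lists 4 curated and 1 predicted mRNA records for Aplp2, against 5 curated and 2 predicted for App and 1 curated for Aplp1. Which of these each probe set reads was not analysed here, since probe positions were not used.

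**Figure D2:**
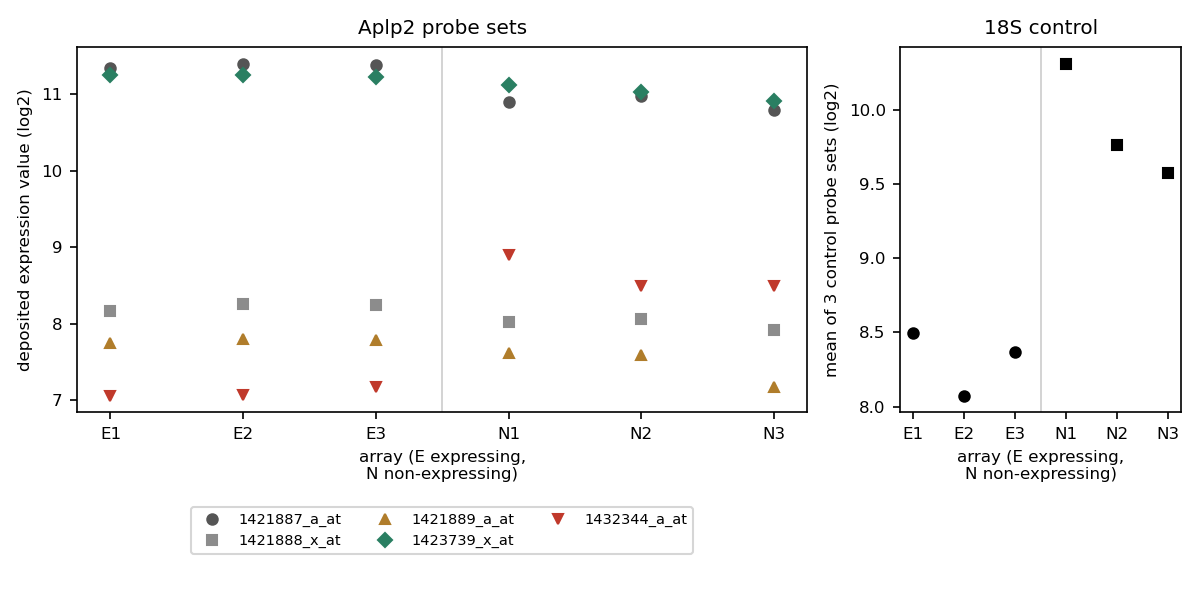
Left, deposited log2 expression values (vertical axis) of the 5 Aplp2 probe sets on the expressing arrays E1 to E3 and the non-expressing arrays N1 to N3. Right, the mean of the 3 control probe sets for 18S ribosomal RNA on the same arrays. Probe set 1432344_a_at is lower on E1 to E3 while the other 4 are slightly higher, and the 18S controls are lower on E1 to E3, at 8.07 to 8.50 against 9.57 to 10.31.

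Controls of RNA quality moved with the groups too. The 18S ribosomal RNA controls averaged 8.31 ± 0.22 and 9.88 ± 0.38 (SD, n = 3 each) on expressing and non-expressing arrays, without overlap. As with 1432344_a_at, non-expressing replicate 1 was the highest array. The beta-actin control's 3′ minus 5′ value was 1.23 ± 0.05 against 1.38 ± 0.07, also without overlap, and that of Gapdh was 0.17 ± 0.06 against 0.25 ± 0.07, with overlap. The exact permutation p, two-sided, was 0.1 for 18S and beta-actin, the smallest that 3 against 3 arrays allow, and 0.3 for Gapdh. Sample titles of the non-expressing group carry 2 prefixes, with replicate 1 apart from replicates 2 and 3, and another prefix marks the expressing group, so prefix and group cannot be told apart. Without non-expressing replicate 1 the difference of 1432344_a_at was -1.39. The part of RNA quality in the Aplp2 values was not tested.

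The spread of differences among probe sets of 1 gene put Aplp2 near the extreme of the array. Between its highest and lowest probe set lay 2.01, which ranked 3 among 9010 genes with more than 1 probe set, so 0.0333% of them had a range at least as wide. The median range over these genes was 0.17. The wide range follows from the value that chose the family and is given as a description. For the other members the range was 0.40 for App and 0.37 for Adam10, which 10.3% and 12.5% of these genes reached, 0.27 for Bace1 (25.8%), 0.17 for Adam17 and Ncstn, 0.04 for Aplp1 and 0.02 for Psen2. A range tends to widen with the number of probe sets, which was 5 for Aplp2, 4 for App, Adam10 and Bace1, 3 for Adam17 and 2 for the rest, and Psenen has 1.

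**Figure D3:**
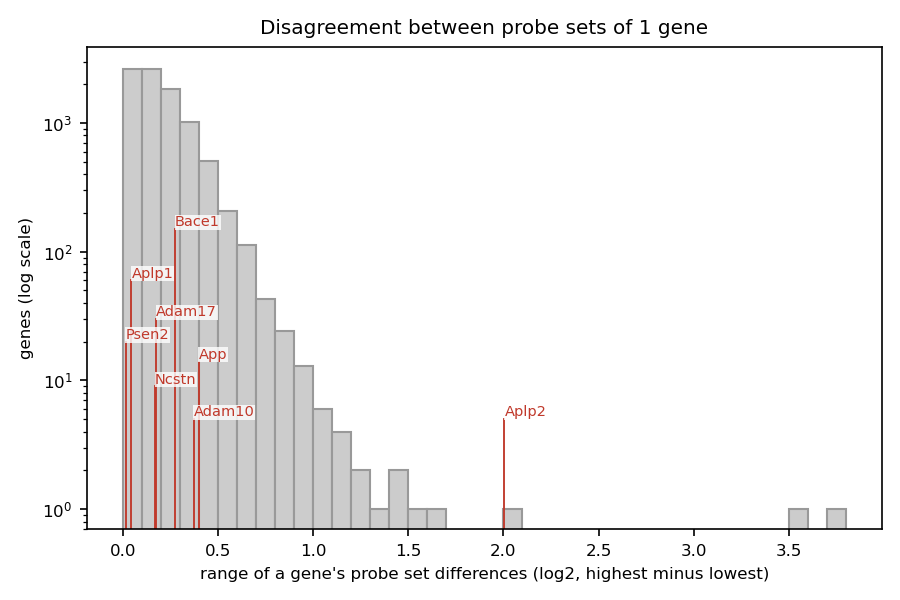
Histogram of 9010 genes by the range of their probe set differences (horizontal axis, log2, highest minus lowest), with the number of genes on a log scale. Red lines mark the 8 member genes with more than 1 probe set, at heights chosen for legibility. Aplp2 lies at 2.01 and the other members at 0.40 or less.

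App encodes the amyloid precursor protein itself. Its brightest probe set, 1427442_a_at, read 11.68, 11.71 and 11.67 in expressing replicates 1 to 3 and 11.44, 11.63 and 11.52 in non-expressing replicates 1 to 3. All expressing arrays were higher, by a narrow gap of 0.03, and the difference was 0.15 (SE 0.08), or 1.11-fold. Probe set 1420621_a_at read 9.28, 9.34 and 9.42 in expressing replicates 1 to 3 and 9.18, 9.31 and 9.27 in non-expressing replicates 1 to 3, and differed by 0.10 (SE 0.08) with overlapping groups.

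The other 2 App probe sets were dim, with all their values between 2.79 and 3.19, far below the array medians of 5.78 to 5.79. At that level a value may be background. Probe set 1438373_at read 3.12, 2.98 and 3.07 in expressing replicates 1 to 3 and 3.04, 3.12 and 3.19 in non-expressing replicates 1 to 3, with a difference of -0.06 (SE 0.08). Probe set 1438374_x_at read 2.88, 2.99 and 2.79 in expressing replicates 1 to 3 and 3.12, 3.12 and 3.14 in non-expressing replicates 1 to 3, and was lower in all expressing arrays, with a difference of -0.24 (SE 0.08). No App probe set passed (lowest limma adjusted p 0.306).

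Aplp1 encodes the homologue found mainly in neurons. Probe set 1416134_at read 6.47, 6.40 and 6.50 in expressing replicates 1 to 3 and 6.44, 6.51 and 6.39 in non-expressing replicates 1 to 3, and probe set 1435857_s_at, whose probes can be shared between genes, read 6.55, 6.54 and 6.60 in expressing replicates 1 to 3 and 6.38, 6.54 and 6.60 in non-expressing replicates 1 to 3. In both the groups overlapped almost fully, and the differences were 0.01 (SE 0.08) and 0.06 (SE 0.08). The 7 measured neuron markers, summed, stood at 9.00 to 9.10 on a log2 scale where PR-M was expressed and at 8.97 to 9.12 where it was not, and 4 of them (Tubb3, Snap25, Elavl4 and Th) lay under the median of all probe sets.

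Bace1 encodes the beta-secretase, the protease that makes the first cut on the way to the amyloid peptide. Probe set 1421824_at read 8.04, 8.11 and 8.05 in expressing replicates 1 to 3 and 8.24, 8.18 and 8.23 in non-expressing replicates 1 to 3. All expressing arrays were lower, by a gap of 0.06, and the difference was -0.15 (SE 0.07). Probe set 1455826_a_at, the brightest, read 8.90, 8.78 and 8.73 in expressing replicates 1 to 3 and 8.89, 8.96 and 8.93 in non-expressing replicates 1 to 3. Its groups overlapped only through expressing replicate 1, and it differed by -0.13 (SE 0.08).

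The remaining Bace1 probe sets were less bright. Probe set 1450384_at read 6.33, 6.18 and 6.14 in expressing replicates 1 to 3 and 6.22, 6.61 and 6.51 in non-expressing replicates 1 to 3, with a difference of -0.23 (SE 0.11). Here non-expressing replicate 1 lay within the expressing range and replicates 2 and 3 above it. Probe set 1421825_at read 6.89, 6.96 and 6.90 in expressing replicates 1 to 3 and 6.73, 6.91 and 6.97 in non-expressing replicates 1 to 3, and differed by 0.04 (SE 0.09), with the opposite sign. So 3 of the 4 Bace1 probe sets had lower means in the expressing arrays, with a median difference of -0.14, and none passed (lowest limma adjusted p 0.451). Probe sets 1421824_at, 1421825_at and 1450384_at were built from the same source sequence.

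Adam10 encodes the principal alpha-secretase of neurons and many other cells, which also sheds Notch receptors and cadherins. Its bright probe set 1428103_at read 9.86, 9.93 and 9.63 in expressing replicates 1 to 3 and 9.66, 9.80 and 9.82 in non-expressing replicates 1 to 3. The groups overlapped widely, with expressing replicate 3 the lowest of all arrays, and the difference was 0.04 (SE 0.10). The other 3 probe sets had means under the median of all probe sets.

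Of these dimmer Adam10 probe sets, 1450104_at read 5.64, 5.55 and 5.72 in expressing replicates 1 to 3 and 5.47, 5.50 and 5.38 in non-expressing replicates 1 to 3. It was higher in all expressing arrays, with a gap of 0.05 and a difference of 0.19 (SE 0.08). Probe set 1450105_at, from the same source sequence, read 4.95, 4.87 and 4.88 in expressing replicates 1 to 3 and 4.87, 5.32 and 5.06 in non-expressing replicates 1 to 3, and differed by -0.18 (SE 0.11). The pair had opposite signs, in the first without overlap and in the second with overlap. Without non-expressing replicate 2 the difference of 1450105_at was -0.07, and without non-expressing replicate 1 it was -0.29. Probe set 1460083_at read 5.48, 5.46 and 5.39 in expressing replicates 1 to 3 and 5.37, 5.51 and 5.45 in non-expressing replicates 1 to 3, and its difference of -0.0003 (SE 0.08) changed sign under several alternatives. No Adam10 probe set passed (lowest limma adjusted p 0.404).

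Adam17 encodes the protease that sheds tumour necrosis factor and ligands of the epidermal growth factor receptor, and that can act as an alpha-secretase. Probe set 1421858_at, the brightest, read 8.72, 8.66 and 8.76 in expressing replicates 1 to 3 and 8.79, 8.74 and 8.74 in non-expressing replicates 1 to 3. Probe set 1421859_at read 7.82, 7.67 and 7.74 in expressing replicates 1 to 3 and 7.80, 7.97 and 7.78 in non-expressing replicates 1 to 3. Groups overlapped in both, and the differences were -0.04 (SE 0.07) and -0.11 (SE 0.09). The dim probe set 1421857_at read 5.59, 5.56 and 5.59 in expressing replicates 1 to 3 and 5.32, 5.49 and 5.73 in non-expressing replicates 1 to 3, with the expressing arrays inside the range of the non-expressing ones and a difference of 0.07 (SE 0.11).

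Psen2 encodes presenilin 2, a catalytic subunit of gamma-secretase. Probe set 1425869_a_at read 7.83, 7.85 and 7.88 in expressing replicates 1 to 3 and 7.95, 7.79 and 7.95 in non-expressing replicates 1 to 3, and probe set 1431542_at read 6.30, 6.46 and 6.28 in expressing replicates 1 to 3 and 6.53, 6.35 and 6.35 in non-expressing replicates 1 to 3. Neither separated the groups, and the differences were -0.05 (SE 0.08) and -0.06 (SE 0.09).

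Ncstn encodes nicastrin, the subunit that receives the substrate. Probe set 1418570_at read 7.47, 7.64 and 7.58 in expressing replicates 1 to 3 and 7.55, 7.54 and 7.65 in non-expressing replicates 1 to 3, and differed by -0.02 (SE 0.08). The dim probe set 1444532_at read 4.67, 4.66 and 4.31 in expressing replicates 1 to 3 and 4.83, 4.74 and 4.63 in non-expressing replicates 1 to 3, with expressing replicate 3 the lowest array and a difference of -0.19 (SE 0.12). Without that array the difference was -0.07. Groups overlapped in both.

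Psenen encodes PEN-2, the smallest subunit of the complex. Its single probe set, 1415679_at, read 10.82, 10.87 and 10.91 in expressing replicates 1 to 3 and 10.85, 10.89 and 10.96 in non-expressing replicates 1 to 3. Each group spanned about the same range, and the difference was -0.03 (SE 0.08).

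By role, 8 of the 11 probe sets of the precursor family had higher means in the expressing arrays, with a median difference of 0.10. Those 8 were 4 of Aplp2, which share a target, 2 of App and 2 of Aplp1, the last at only 0.01 and 0.06. Of all 45037 probe sets 20007 had higher and 25030 lower means. Of the 16 probe sets of cleaving enzymes and subunits, 4 had higher and 12 lower means, with a median of -0.04 and differences from -0.23 to 0.19. Groups did not overlap in 2 of these 16, where 18.6% of all probe sets did not. None passed (lowest limma adjusted p 0.404) and 1, of Adam10, had an unadjusted p under 0.05, where 12.2% of all probe sets did.

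**Figure D4:**
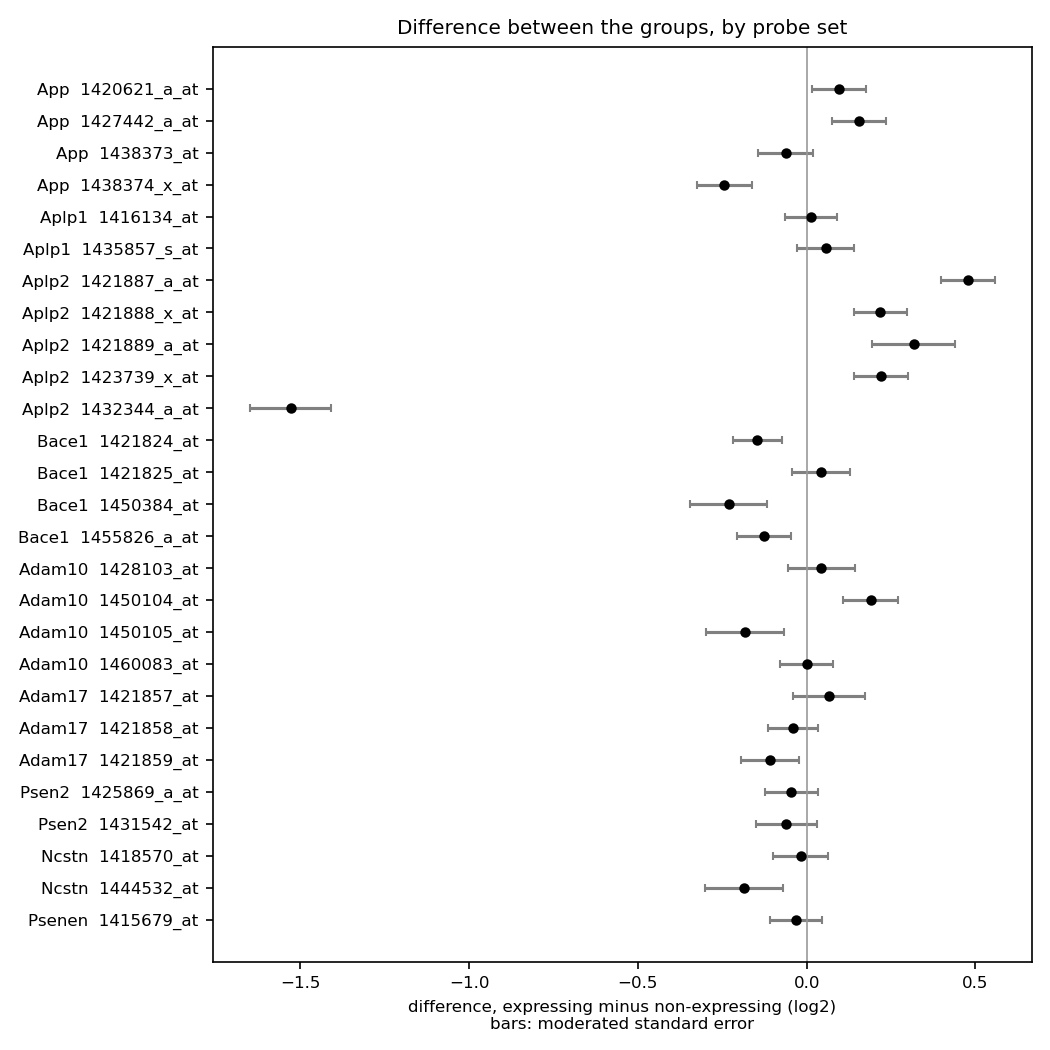
Difference between the expressing and the non-expressing mean (horizontal axis, log2) for each of the 27 member probe sets (rows), with bars of 1 moderated standard error. Aplp2 1432344_a_at lies at -1.53, the other 4 Aplp2 probe sets at 0.22 to 0.48, and every other member between -0.24 and 0.19.

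With 1 value a gene, from its brightest probe set, 0 of the 9 members passed, where 0.066% of 18193 genes did (12 genes, 6 higher and 6 lower). A single member, Aplp2, had an unadjusted p under 0.05, where 11.4% of all genes did. Its brightest probe set stands for the gene at 0.48 (limma adjusted p 0.132 over genes), so the probe set that fell is not seen in that comparison. When all probe sets of a gene were averaged, Aplp2 differed by -0.06 and App by -0.01, and again 0 of 9 passed.

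Other genes of amyloid precursor processing were taken from 7 lists with 139 entries. Of these entries, 129 matched the symbol of a measured gene and 10 matched none. None of the 129 passed over all genes in limma or with ordinary statistics. At an unadjusted p under 0.05 there were 16 (12.4%), close to the 11.4% of all genes, and the median difference was 0.02 against -0.02 over all genes. By list that share ran from 0.0% to 22.2%, the highest among the other substrates of the secretases. For 19 of them all expressing arrays were higher and for 7 all were lower, where 8.16% and 10.8% of all genes were. Differences were positive for 76 and negative for 53 of the 129, against 8011 and 10182 of all genes, and the counts of signs for single lists stand beside that background.

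The 10 measured genes of other secretases and gamma-secretase subunits had a median of 0.13, with 0.17 (SE 0.08) for Bsg, a glycoprotein that binds gamma-secretase, and 0.19 (SE 0.08) for Lgmn, the asparagine endopeptidase. Of 16 adaptors of the cytoplasmic tail, 11 had positive and 5 negative differences. Apba1, an adaptor of the X11 type, differed by -0.18 (SE 0.09) and Apbb2, of the Fe65 type, by 0.16 (SE 0.09). Among 23 genes of sorting and transport, Sorl1, a sorting receptor that retains the precursor in the Golgi, was lower in all expressing arrays, with -0.36 (SE 0.09). Lrp1, a large endocytic receptor, was higher in all of them, with 0.25 (SE 0.08).

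Of 14 proteases that degrade the amyloid peptide, the values with the lowest p were 0.29 (SE 0.11) for Htra1 and 0.18 (SE 0.08) for Ece1, the endothelin-converting enzyme, both higher in all expressing arrays. The 12 chaperones and carriers had a median of 0.07 and 10 positive differences. Serpina3n, a secreted protease inhibitor, was at 8.33 ± 0.14 against 7.74 ± 0.15 (SD, n = 3 each), without overlap, a difference of 0.59 (SE 0.11), and Apoe, an apolipoprotein that binds the peptide, differed by 0.36 (SE 0.19) with overlap. Among 18 regulators of ADAM proteases the values were -0.22 (SE 0.09) for the tetraspanin Tspan33, whose probe set was dim, and 0.27 (SE 0.13) for the inhibitor Timp1.

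The 36 other substrates of the secretases held the widest differences, from -0.59 to 0.77, with 14 positive and 22 negative. Cd44, a hyaluronan receptor shed by ADAM proteases, was at 7.52 ± 0.10 against 7.02 ± 0.09, a difference of 0.51 (SE 0.09). Chl1, an adhesion molecule cut by BACE1, was at 6.14 ± 0.14 against 5.37 ± 0.26, a difference of 0.77 (SE 0.14), its non-expressing level lying under the array medians. In both genes all expressing arrays were higher (SD, n = 3 each). None of the 36 passed, with a lowest limma adjusted p of 0.141.

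**Figure D5:**
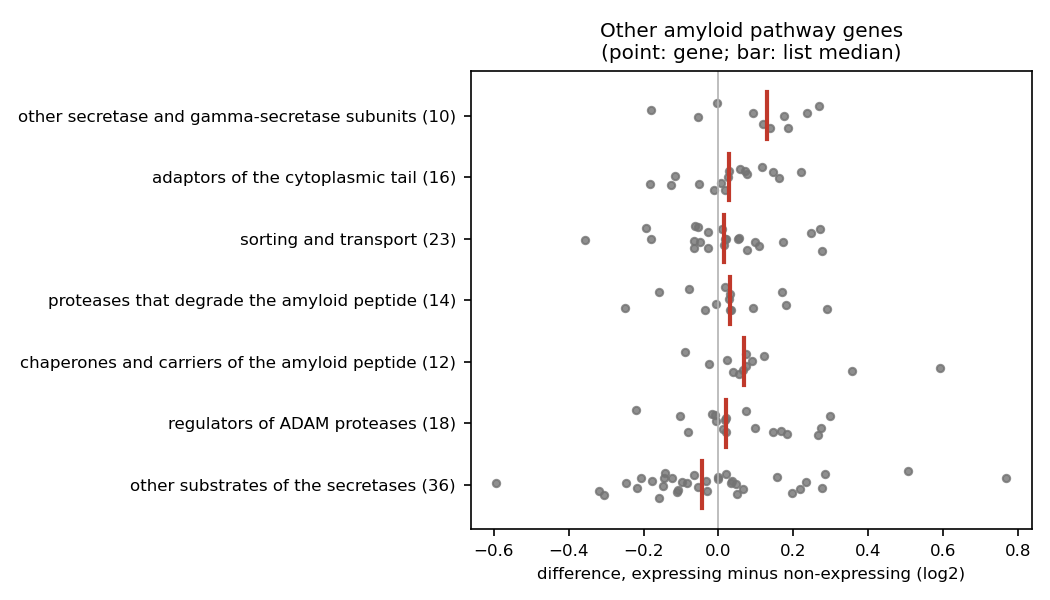
Difference between the expressing and non-expressing mean (horizontal axis, log2) of 129 other genes of amyloid precursor processing, 1 point a gene, in 7 lists (rows, with the number of genes; points are spread vertically for legibility). Red bars are list medians, which lie between -0.04 and 0.13.

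Cell type markers were summed on the linear scale within each list and written as log2. Markers of cardiomyocytes, 8 of 8 measured, stood at 17.31 to 17.36 with and 17.32 to 17.35 without PR-M expression. Fibroblast markers, 8 of 8, were at 14.56 to 14.70 against 14.32 to 14.46, and atrial muscle markers, 8 of 8, at 11.80 to 13.35 against 10.82 to 11.47, both without overlap. Of the 8 atrial genes 3 passed the threshold over genes, where 0.066% of all genes did, and their median difference was 0.93. Bmp10 of this list lay under the median of all probe sets. No fibroblast gene passed. Lymphocyte markers, 7 of 8, were at 8.89 to 8.96 against 8.97 to 8.99, also without overlap, with Cd3g, Cd79a, Ms4a1 and Nkg7 under the median of all probe sets. The endothelial, smooth muscle, macrophage, neuron, Schwann, adipocyte, red blood cell, platelet and mesothelium lists overlapped. The part of cell composition in the members' values was not tested, and in whole tissue fewer cells of a type and less RNA per cell cannot be told apart.

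The probe sets most like 1432344_a_at over the 6 arrays were sought by Pearson correlation among 34918 probe sets with 1 gene symbol. The highest were 1110059G10Rik, Tex13b, Kalrn, Snapc5 and Smim27, with r of 0.997, 0.997, 0.996, 0.995 and 0.995. Their own differences were much smaller, from -0.31 for Tex13b to -0.15 for Snapc5, and the probe sets of Tex13b, Snapc5 and Smim27 were dim. At the opposite end were Cenpb, Wls, Nfib, Ube2d3 and Tle2, with r from -0.996 to -0.991 and differences from 0.75 for Cenpb to 0.13 for Ube2d3. All 10 separated the groups without overlap, which follows from their choice by likeness to a probe set that separates them.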

How the data were processed

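Total RNA (500 ng, Trizol) of each sample was amplified and put as biotin-labelled RNA on an Affymetrix Mouse Genome 430 2.0 array, per the labels' protocols. The values deposited are the authors' log2 expression of every probe set. RMA and Partek 6.6 stand in the submitters' processing notes without a role, and their settings are not stated there. That the scale is log2 follows from the range, 2.09 to 14.8. Sorted by size, the values of different arrays lay within 0.155 of each other, so the arrays had been scaled together, and a change of all genes together would not show.

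The 64 control probe sets were left out, and 45037 were fitted with limma 3.58.1, run in R 4.3.3 (eBayes after lmFit, default prior, two-sided, Benjamini-Hochberg, threshold 0.05). Of these, 34945 have 1 gene symbol, 932 several and 9160 none. For genes, the p of the probe set with the highest mean was adjusted over 18193 genes. The fit was tested on simulated data. Replicates were numbered in record order. The number of arrays, 3 in each group, limits the precision. All member probe sets are named. Of each pathway list the 2 genes with the lowest p are named, and 5 probe sets most like and 5 least like the Aplp2 probe set with the largest difference. Members, lists and this rule were chosen with earlier results of these data known. Alternatives were a filter on dim probe sets, other scalings, priors and weights, title prefix as random block (statmod 1.5.0), fewer kinds of probe set, the mean of a gene's probe sets, ordinary statistics and leaving out each array. Promoters came from RefSeq, with a window found for 8 of 9 members.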

Additional observations from a re-analysis of the deposited data

How the results depend on the processing

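Of the 27 member probe sets, 1 passed as reported, 2 with an intensity trend and robust prior, where Aplp2 1421887_a_at was called higher as well (limma adjusted p 0.0441), and 0 with ordinary statistics. With 1 array left out the count lay between 0 and 1. The adjusted p of Aplp2 1432344_a_at lay between 0.00140 and 0.268 over its alternatives, and it was 0.0840 without expressing replicate 3, 0.0509 without non-expressing replicate 2 and 0.0566 without non-expressing replicate 3. Because the difference of this probe set chose the family, its adjusted p-values describe it and do not test it. Of the 9 member genes, 0 passed as reported and 1, Aplp2, passed as higher with the intensity trend and robust prior. The gene is represented there by its brightest probe set, 1421887_a_at, not by 1432344_a_at. Of the 129 pathway genes, none passed under any alternative run. Only 110 were tested without dim probe sets and 126 without _x_at and _s_at probe sets. Of the 27 member probe sets 19 kept the sign of their difference under all alternatives run, up to 15 each. The other 8 had differences of at most 0.07 in size, and no member's difference moved by more than the larger of its 2 group SDs.

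Over the whole array the counts of calls varied more. Against 6 probe sets, 31 passed without dim ones, 37 with the intensity trend, 43 with array weights, 2 with ordinary statistics, and 0 to 44 with 1 array left out. Against 12 genes, 23 passed with the intensity trend, 26 with array weights, 4 with title prefix as random block, 3 without _x_at and _s_at probe sets, 1 with ordinary statistics, 1 with the mean of all probe sets, and 0 to 18 with 1 array left out. With a prior from the gene representatives alone, chosen after seeing the data, 4 passed. The cause was not tested. No paired analysis was possible because the labels number no replicates, and the numbers in the sample titles of the groups have fewer than 2 in common.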
